A study of Mus musculus with 9 samples.

Results

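The myeloid C-type lectin receptors described here are the products of 9 genes, Clec4a1, Clec4a2, Clec4a3, Clec4d, Clec4e, Clec4n, Clec5a, Clec7a, and Clec12a. They were taken by name from the 24341 gene names in a table of mouse liver expression, and all 9 were in the table. The livers came from 9 wild-type C57BL/6 mice and were collected 48 hours after treatment. The anti-CD40 group held 3 mice (mice 2, 5, and 9) given FGK45, an antibody that activates CD40, a receptor on antigen-presenting cells, and the control group held 6 mice (mice 3, 4, 7, 8, 11, and 12), for which the labels name PBS. The labels give no age, and the study's methods give young adult mice of matched sex as its general practice. By the study's methods, mice were bought or bred in-house, and treated mice whose blood B cells did not fall were excluded from analysis.

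C-type lectin receptors are surface proteins with which phagocytes and dendritic cells bind sugars and glycolipids of fungi and mycobacteria, and material that leaks from dying host cells. Clec4e (Mincle), Clec4d (MCL), and Clec4n (Dectin-2) signal through the adaptor Fcer1g, Clec5a (MDL-1) through Tyrobp and Hcst, and Clec7a (Dectin-1, the receptor for fungal beta-glucan) through a tyrosine motif of its own. These routes meet at the kinase Syk, and from there Card9, Bcl10, and Malt1 carry the signal to NF-kB and to cytokine and chemokine genes. Clec12a (MICL) and Clec4a2 (DCIR) instead carry an inhibitory motif, which recruits the phosphatases Ptpn6 and Ptpn11, and Clec4a1 and Clec4a3 are close relatives of Clec4a2. In the liver such receptors are known from Kupffer cells, monocytes, neutrophils, and dendritic cells.

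All 9 genes lie on chromosome 6. The promoters of 4 of them are shown, from 250 bases before to 49 bases after the base of the transcription start, because Clec4e, Clec4d, and Clec5a were the genes that changed most after anti-CD40 and Clec4a2 the gene that changed least. The sequences are from RefSeq on GRCm38.p6, the same build as the mm10 of the deposited table, and are written 5′ to 3′ on the strand of the gene, with matches to 4 searched motifs in capitals. They lie at chr6:123289822-123290121 (minus strand) for Clec4e, chr6:123261857-123262156 (plus strand) for Clec4d, chr6:40585756-40586055 (minus strand) for Clec5a, and chr6:123122440-123122739 (plus strand) for Clec4a2.
Clec4e: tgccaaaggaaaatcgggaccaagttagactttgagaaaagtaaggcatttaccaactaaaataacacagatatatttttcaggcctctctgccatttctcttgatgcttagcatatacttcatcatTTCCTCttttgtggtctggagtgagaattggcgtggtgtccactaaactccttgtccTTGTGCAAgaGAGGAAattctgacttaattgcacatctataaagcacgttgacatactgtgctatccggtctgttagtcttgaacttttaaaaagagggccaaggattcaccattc
Clec4d: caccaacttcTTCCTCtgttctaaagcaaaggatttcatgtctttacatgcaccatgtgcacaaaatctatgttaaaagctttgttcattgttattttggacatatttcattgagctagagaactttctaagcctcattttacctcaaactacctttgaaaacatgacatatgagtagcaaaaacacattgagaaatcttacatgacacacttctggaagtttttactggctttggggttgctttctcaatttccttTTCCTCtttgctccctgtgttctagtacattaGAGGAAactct
Clec5a: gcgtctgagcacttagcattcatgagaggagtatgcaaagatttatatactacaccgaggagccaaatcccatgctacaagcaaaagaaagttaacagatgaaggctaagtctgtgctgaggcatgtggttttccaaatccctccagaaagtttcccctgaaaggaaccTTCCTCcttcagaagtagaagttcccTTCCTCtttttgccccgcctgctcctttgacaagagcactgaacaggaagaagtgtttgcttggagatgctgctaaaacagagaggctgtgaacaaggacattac
Clec4a2: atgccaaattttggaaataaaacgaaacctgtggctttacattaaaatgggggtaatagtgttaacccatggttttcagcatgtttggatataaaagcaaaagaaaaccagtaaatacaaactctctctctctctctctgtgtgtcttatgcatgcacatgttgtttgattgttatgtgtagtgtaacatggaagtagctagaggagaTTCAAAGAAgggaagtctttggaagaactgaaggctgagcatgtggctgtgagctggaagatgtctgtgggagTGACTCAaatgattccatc
The motifs were searched on both strands, and none of the matches in these 4 promoters overlapped another. The letters GAGGAA are the core bound by PU.1, a factor of myeloid cells. They were found in 8 of the 10 promoters entered for 8 of the genes, and in 28.3% of all 32851 promoters in the reference. The promoters entered for Clec7a overlap, and their matches at -96 and -90 are the same site counted from different starts. By gene, 7 of the 8 held GAGGAA at a start, whereas the share over the reference is counted by promoter. Clec4a2 was the gene without GAGGAA at the start entered, though GENCODE M21 begins this gene further upstream, at 123106428. Clec4a3 held it at 1 of its 2 starts. Counted from the start as 0 to its first base, it lay at -123 and -56 in Clec4e, at -240, 7, and 39 in Clec4d, and at -81 and -55 in Clec5a. The AP-1 letters TGANTCA were found in 2 genes (Clec4a2 and Clec12a) and in 7.81% of all promoters, and the C/EBP letters TTGCNNAA in 2 genes (Clec4e and Clec12a) and in 10.8% of all promoters. The STAT letters TTCNNNGAA were found in 1 gene, Clec4a2, and in 8.30% of all promoters. The consensus of NF-kB was found in 0 of the 8 genes and in 8.46% of all promoters. Out of the 10 promoters, the counts for AP-1, C/EBP, STAT, and NF-kB were the same as by gene. No link between these letters and the changes was tested. Clec4n was not among the promoter entries used here.

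RNA was read from the 3′ end of each transcript, and the values are FPKM, the reads of a gene divided by the length of its transcript and by the mapped reads. Because 3′ reads do not grow with transcript length, the FPKM of one gene cannot be set directly against that of another, but the length drops out of the change of 1 gene. Changes are given as the log2 fold change of FPKM + 0.1, anti-CD40 over control, with its standard error (SE) and a p-value adjusted over the 13807 genes tested with limma, a linear model that pools information on the spread across genes. This scale understates the change of low genes. No read totals are given, so the absolute depth is unknown. Steps among the low values put the depth of the 9 mice between 0.870 and 1.13 of their geometric mean. Read numbers quoted for a gene are the lowest integers that give its control values to within 0.05 reads. Those of the anti-CD40 mice were rounded on the same scale without that check. For Clec4a3 and Clec7a no such integers were found.

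The 9 lectin genes were each higher in the anti-CD40 livers, and in 8 of them the lowest anti-CD40 mouse was above the highest control mouse. The median log2 fold change of the 9 was 2.35, against 0.0056 over all genes tested. In bulk liver, more cells of a type and more RNA per cell cannot be told apart. Many genes of the liver moved in these mice: 45.1% of the genes tested were called at an adjusted p under 0.05, 23.5% as higher and 21.7% as lower, and 42.4% had groups that did not overlap, 22.7% with anti-CD40 higher and 19.6% with it lower. The sizes of the changes fell into 3 ranges. Clec4e, Clec4d, and Clec5a rose by more than 4 on the log2 scale, as did 0.659% of the genes tested. Clec4n and Clec7a rose by more than 2, as did 5.28% of the genes tested, and the other 4 by less. When Saa1, Saa2, and Saa3, acute phase genes with very large values after anti-CD40, were left out and each mouse rescaled, the calls across the table went from 3240 higher and 2990 lower to 5635 higher and 1647 lower and the median of all genes moved to 0.35. The median of the 9 lectin genes was then 2.72, and all 9 were still called higher. Clec4e and Clec5a reached the mean FPKM of 0.1 asked of a tested gene only through the anti-CD40 mice. The filter thus set their direction, and they add little to the count of genes called.

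Clec4e, Clec4d, and Clec5a, activating receptors that signal through adaptor proteins, went from traces in the control livers to clear expression after anti-CD40. Clec4e (chr6:123281789-123289871, minus strand), the receptor for mycobacterial cord factor and for a protein of dead cells, had an FPKM of 16.4, 14.5, and 10.1 in treated mice 2, 5, and 9. The 6 control mice lay between 0.0253 and 0.147, with a median of 0.0455. The lowest anti-CD40 mouse was 69.1 times the highest control mouse. The means were 13.7 ± 3.22 (SD, n = 3) and 0.0627 ± 0.0437 (SD, n = 6), and the log2 fold change was 6.41 (SE 0.24, adjusted p = 8.66e-08). These values rest on 455 to 841 reads in the anti-CD40 mice and on 1 to 7 reads in the control mice, 17 in all 6, so the control level, and with it the size of the ratio, is known only roughly.

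Clec4d (chr6:123262107-123275268, plus strand) lies next to Clec4e on the opposite strand and encodes a receptor that pairs with it. Its FPKM was 21.5, 19.9, and 15.9 in treated mice 2, 5, and 9, and in the control mice it ran from 0.104 to 0.727 with a median of 0.238. Mouse 7 was the highest control and mouse 4 the next, and both were far below the anti-CD40 mice. The mean rose from 0.342 ± 0.245 (SD, n = 6) to 19.1 ± 2.87 (SD, n = 3), which is a log2 fold change of 5.61 (SE 0.40, adjusted p = 3.41e-06). Clec4d was read 349 to 538 times in the anti-CD40 mice and 2 to 17 times in the control mice.

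Clec5a, the receptor for dengue virus on monocytes and neutrophils, lies at chr6:40574894-40585821 (minus strand) in GENCODE M21, apart from the other genes. The deposited table gives it a wider position, chr6:40529091-40910666, which it shares with 7 other names, among them Mgam and Prss58. The FPKM under its name was 3.76, 2.99, and 2.09 in treated mice 2, 5, and 9. In the control mice it lay between 0.01, the floor of the table, and 0.0816, with a median of 0.0302. Only control mouse 8 was at the floor, and the groups did not overlap. The log2 fold change was 4.44 (SE 0.25, adjusted p = 9.05e-07), with means of 2.95 ± 0.833 (SD, n = 3) and 0.0392 ± 0.0306 (SD, n = 6). It was read 144 to 295 times in each anti-CD40 mouse and 16 times in the 6 control mice together. The control means of Clec4e and Clec5a were below the mean FPKM of 0.1 asked of a tested gene, so these 2 genes were tested because of their level in the anti-CD40 mice. A call in the lower direction was therefore not possible for them. The size of all 3 changes depends on the pseudocount: with 1 in place of 0.1 the log2 fold changes were 3.76 for Clec4e, 3.91 for Clec4d, and 1.90 for Clec5a, and with 0.01 they were 7.70, 6.05, and 6.12.

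Clec4n and Clec7a, the receptors for fungal mannan and beta-glucan, were already well expressed in the control livers and rose by 2.43 and 2.35 on the log2 scale. Clec4n (chr6:123229843-123247024, plus strand) had an FPKM of 67.2, 63.9, and 43.3 in treated mice 2, 5, and 9. Its control mice ran from 7.71 to 16.3, with a median of 10.5. Its mean was 58.1 ± 13 (SD, n = 3) after anti-CD40 and 10.8 ± 3.02 (SD, n = 6) in controls, and the log2 fold change was 2.43 (SE 0.23, adjusted p = 1.66e-05). The smallest anti-CD40 value, in mouse 9, was 2.65 times the largest control value, in mouse 4.

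Clec7a (chr6:129461591-129472779, minus strand), which GENCODE M21 types as a polymorphic pseudogene, had an FPKM of 77.9, 63.7, and 58.7 in treated mice 2, 5, and 9. In the control mice its FPKM ran from 7.55 to 30.5 with a median of 11.6. Control mouse 4, at 30.5, stood apart from the next control, mouse 7 at 16.0, but remained below the anti-CD40 mice. With all mice in the fit the log2 fold change was 2.35 (SE 0.36, adjusted p = 4.49e-04), for means of 66.7 ± 9.98 (SD, n = 3) and 14.4 ± 8.37 (SD, n = 6). Without control mouse 4 it was 2.60.

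The inhibitory receptor Clec12a and the DCIR group rose less. Clec12a (chr6:129350244-129365303, plus strand), which binds uric acid crystals and restrains neutrophils, had an FPKM of 9.79, 7.58, and 8.19 in treated mice 2, 5, and 9, and of 1.92 to 4.18 in the control mice, with a median of 2.30. Its groups did not overlap, and mice 4 and 7 were the highest controls. The mean went from 2.70 ± 0.948 (SD, n = 6) to 8.52 ± 1.14 (SD, n = 3), which is a log2 fold change of 1.68 (SE 0.25, adjusted p = 3.87e-04).

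Clec4a3 (chr6:122952515-122969878, plus strand) had an FPKM of 6.13, 5.18, and 5.83 in treated mice 2, 5, and 9, and lay between 1.85 and 3.62 in the control mice, with a median of 2.57. Its log2 fold change was 1.09 (SE 0.19, adjusted p = 9.08e-04). Clec4a1 (chr6:122921848-122934619, plus strand) had an FPKM of 9.07, 9.29, and 14.1 in the anti-CD40 mice, and its control mice ran from 3.80 to 6.93 with a median of 4.71. Here mouse 9 was the highest anti-CD40 mouse, whereas mouse 2 was the highest in the other 8 genes. The log2 fold change of Clec4a1 was 1.09 (SE 0.22, adjusted p = 0.00257). For both genes every anti-CD40 mouse was above every control mouse, by 1.43 times for Clec4a3 and 1.31 times for Clec4a1 at the nearest.

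Clec4a2 (chr6:123122690-123143999, plus strand), the ITIM-bearing DCIR itself, was the 1 gene whose groups overlapped. Its FPKM was 8.03, 5.35, and 6.02 in treated mice 2, 5, and 9. The control mice ran from 2.12 to 5.91 with a median of 3.61, and control mouse 4, the highest, was above anti-CD40 mouse 5. The means were 6.47 ± 1.39 (SD, n = 3) and 3.64 ± 1.39 (SD, n = 6), and the log2 fold change of 0.87 (SE 0.30) passed the test with an adjusted p of 0.0341. This call is not a firm one. It was lost in 7 of 19 alternatives, with no filter on low values, without any 1 of the 3 anti-CD40 mice, and without control mouse 3, 8, or 11, where the adjusted p lay between 0.0542 and 0.146. Of the 50-base stretches in the last 500 bases of its transcripts, 8.96% also occur in Clec4a4 or Clec4b1, so some reads could come from those neighbours. That share was 1.1% for Clec4n, with Gm44147, and 0 for the other 7 genes.

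**Figure D1:**
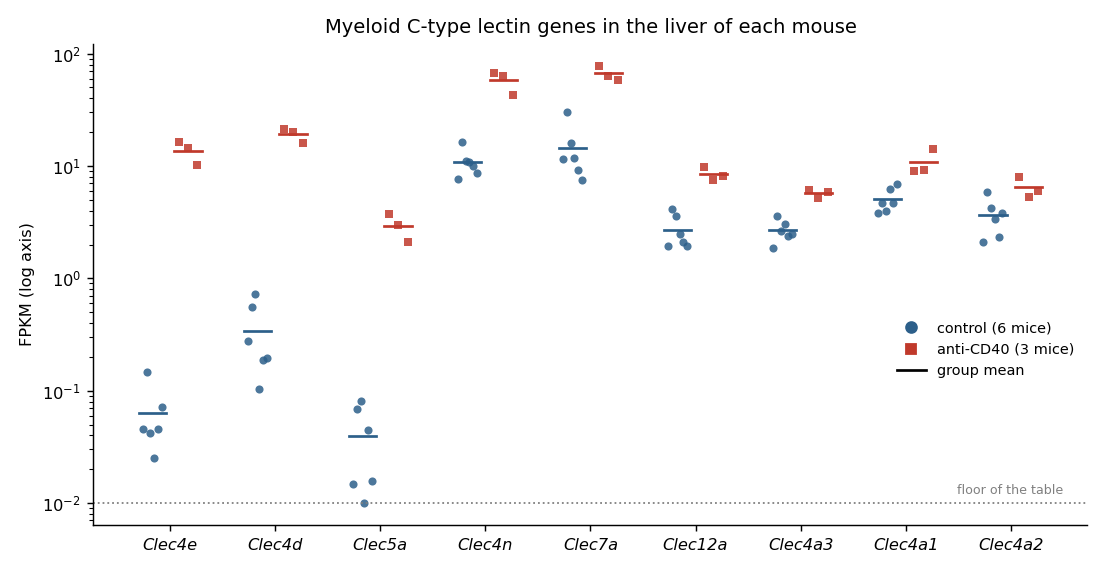
FPKM of the 9 lectin genes in each mouse on a log axis, with control mice as circles, anti-CD40 mice as squares, and a bar at each group mean. The groups overlap in Clec4a2, and Clec4e, Clec4d, and Clec5a start from control means of 0.0627, 0.342, and 0.0392.

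A 2-sided exact permutation test over the 84 ways to split 9 mice into 3 and 6 gave p = 0.0238 for each of 8 genes, the smallest p the design allows, and p = 0.0476 for Clec4a2. Apart from treatment, the labels tell the 9 mice apart only by their numbers, and each mouse counted once. For those 8 genes the exact permutation p of 0.0238 says that the 3 anti-CD40 mice all lay above the 6 control mice. It does not measure the spread between the livers.

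**Figure D2:**
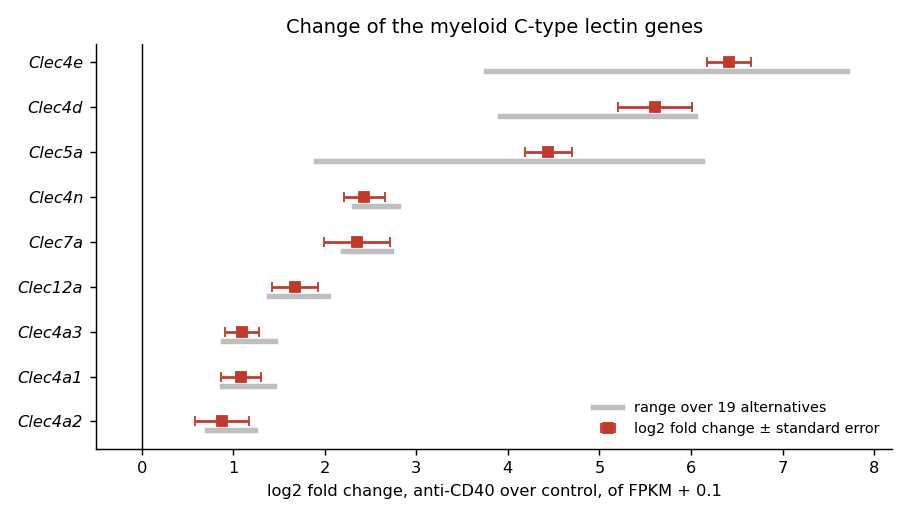
Log2 fold change of FPKM + 0.1 for each gene, anti-CD40 over control, as squares with the standard error from limma, above a grey bar that spans the values under 19 alternative settings. The bars of Clec4e, Clec4d, and Clec5a are wide because the pseudocount moves them, and none of the bars reaches 0.

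The 9 genes varied together within the groups in part. Among the control mice, mouse 4 was the highest in 6 of the 9 genes and among the highest 2 in 8. Among the anti-CD40 mice, mouse 2 was the highest in 8 genes and mouse 9 the lowest in 5. Control mouse 4 also had the highest summed FPKM of the neutrophil markers among the controls, 156 against at most 83.0 in the other 5, and of the B cell markers, 6.53 against at most 3.40. Most of that neutrophil sum was S100a8 and S100a9, at 99.2 and 50.3 in mouse 4. Of the other leukocyte lists, mouse 4 was the highest control only for the dendritic cell markers, at 3.82 against at most 3.69. Other control mice were highest for the monocyte, macrophage, Kupffer cell, pan-leukocyte, and T and NK cell sums. Ptprc alone, which all leukocytes express, was highest in mouse 4, at 3.14. The part of each of these cell types in the lectin values of mouse 4 was not tested. Anti-CD40 mouse 5 held transcripts of pancreatic enzymes, with a summed FPKM of 564 against at most 2.72 in the other anti-CD40 mice. With mice 4 and 5 both left out, a choice made after the data were seen, the 9 genes were still called higher and their median log2 fold change was 2.48.

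Within each mouse, 5 pairs of the genes were compared as log2 ratios, to see whether neighbours and close relatives changed by the same amount. The change of such a ratio can be read, but not its level. The log2 ratio of Clec4d to Clec4e was lower after anti-CD40, at 0.50 ± 0.14 (SD, n = 3) against 1.30 ± 0.68 (SD, n = 6), a difference of -0.81. The groups did not overlap in this ratio (exact permutation p = 0.0238), but the p adjusted over the 5 pairs was 0.0595, and with a pseudocount of 1 the difference turned to 0.15. The log2 ratio of Clec4n to Clec4d was 1.58 ± 0.13 (SD, n = 3) after anti-CD40 and 4.76 ± 0.68 (SD, n = 6) in controls, a difference of -3.17 (exact permutation p = 0.0238, adjusted 0.0595). No mouse of one group reached the other in that ratio. The Clec7a to Clec12a ratio was higher after anti-CD40 by 0.68 (exact permutation p = 0.0476, adjusted 0.0794), and control mouse 4, at 2.84, lay just inside the anti-CD40 range of 2.83 to 3.05.

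The DCIR relatives moved by amounts that these mice do not separate. The ratio of Clec4a2 to Clec4a3 differed by -0.22 between the groups (exact permutation p = 0.310, adjusted 0.387), with anti-CD40 mice from 0.046 to 0.38 and control mice from -0.017 to 0.69. For Clec4a1 to Clec4a3 the difference was -0.0091 (exact permutation p = 1), with 0.56 to 1.26 after anti-CD40 and 0.36 to 1.45 in controls.

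Along the chromosome, the 6 Clec4 genes lie in a stretch of 368 kb with 3 other lectin genes in the table, in the order Clec4a1, Clec4a3, Clec4a4, Clec4b1, Clec4a2, Clec4b2, Clec4n, Clec4d, and Clec4e. The 3 genes at the Clec4e end had the largest changes of the stretch, 2.43, 5.61, and 6.41 in log2, and the Clec4a genes changed by 0.87 to 1.43. Among the latter, Clec4a4 (DCIR2, known from dendritic cells) is not one of the 9. It rose by 1.43 (SE 0.35, adjusted p = 0.00730) from a low level, with 4 of 6 control mice at the floor. Clec4b1 (DCAR), an activating relative that lies between Clec4a4 and Clec4a2, went the other way. Its FPKM was 1.70, 1.81, and 2.58 in treated mice 2, 5, and 9 and 5.80 to 13.4 in the control mice, a log2 fold change of -2.07 (SE 0.27, adjusted p = 1.35e-04). Clec4b2 was at the floor in all 9 mice.

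Clec12a and Clec7a lie in a further stretch of 157 kb with Clec12b, Clec1b, Clec9a, Clec1a, and Olr1. Of these neighbours, Olr1, a receptor for oxidized low-density lipoprotein, is named by its size of change, and the other 4 were added after their values were seen. Olr1, next to Clec7a, rose from 0.0248 ± 0.0166 (SD, n = 6) to 1.28 ± 0.348 (SD, n = 3), which is a log2 fold change of 3.44 (SE 0.23, adjusted p = 2.14e-06). Clec1a, a lectin of endothelial cells, rose by 1.24 (SE 0.12, adjusted p = 2.56e-05). Clec9a, the receptor of cross-presenting dendritic cells for dead cells, changed by 0.85 in log2 (adjusted p = 0.0348), a call lost in 7 alternatives. Clec1b, the platelet receptor for podoplanin, had an FPKM of 17.1 to 22.8 in the anti-CD40 mice and of 17.4 to 24.8 in the control mice, a log2 fold change of -0.034 (SE 0.15, adjusted p = 0.875). Clec12b was too low to be tested, at most 0.0803 in any mouse.

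**Figure D3:**
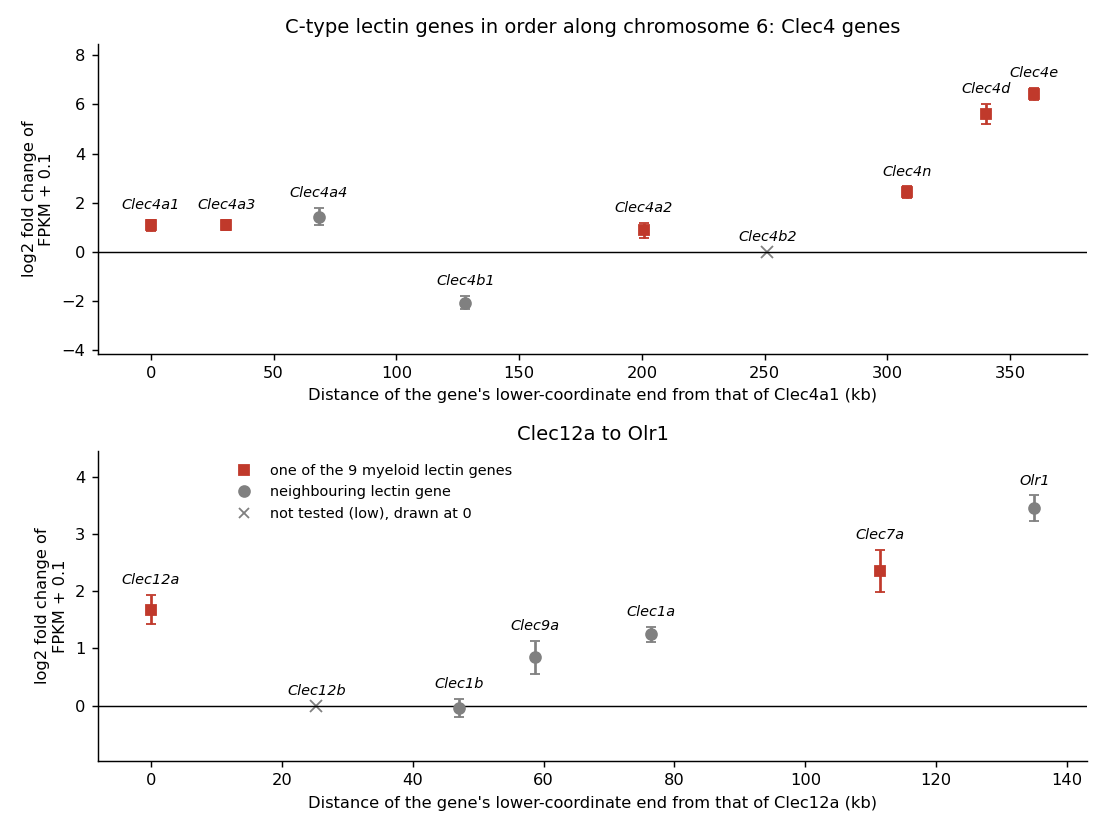
Log2 fold change of FPKM + 0.1 with its standard error for the lectin genes of the 2 stretches of chromosome 6, plotted by distance in kb from the first gene of each stretch. Red squares are genes of the 9, grey circles their neighbours, and crosses genes too low to test, drawn at 0. The largest changes of the upper stretch lie at its right end, and Clec4b1 lies at -2.07.

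The 9 genes were also set against Ptprc (CD45), which all leukocytes express, in the same mouse. Ptprc itself rose by 2.60 on the log2 scale (SE 0.29, adjusted p = 5.47e-05), from an FPKM of 1.81 ± 0.782 (SD, n = 6) to 10.8 ± 1.26 (SD, n = 3). Because few genes rose as much as Ptprc, the ratio of 90.2% of the genes tested was lower in every treated mouse than in any control mouse, and that of 1.04% was higher. The ratios of Clec4e, Clec4d, and Clec5a differed by 3.81, 3.01, and 1.84 in log2 and were higher without overlap, as in that 1.04%. With a pseudocount of 1, chosen after the data were seen, Clec4e and Clec4d still lay above without overlap (1.66 and 1.81), but Clec5a turned to -0.20 with overlapping groups, so its place relative to Ptprc is not settled. Clec4n and Clec7a had differences of -0.16 and -0.24 and overlapping groups, and their sign also turned, to 0.23 and 0.16. Clec12a, Clec4a3, Clec4a1, and Clec4a2 had differences of -0.92, -1.50, -1.51, and -1.72 and were lower without overlap, as were most genes, though Clec4a1 overlapped with a pseudocount of 1 (-1.15).

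The spread of these ratios was small for some genes. The log2 ratio of Clec7a to Ptprc was 2.61 ± 0.047 (SD, n = 3) after anti-CD40 and 2.86 ± 0.23 (SD, n = 6) in controls, and for Clec12a it was -0.34 ± 0.10 (SD, n = 3) and 0.58 ± 0.12 (SD, n = 6). Against Csf1r, a receptor of macrophages and monocytes, each of the 9 ratios was higher in every treated mouse than in any control mouse, as were those of 34.2% of the genes tested, while 3.38% were lower. Csf1r had a log2 fold change of -0.62 (SE 0.27), which did not pass the test (adjusted p = 0.0837), though it did with quantile normalization (-0.68, adjusted p = 0.0455) and without control mouse 3 (-0.75, adjusted p = 0.0330). These ratios were described, not tested.

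**Figure D4:**
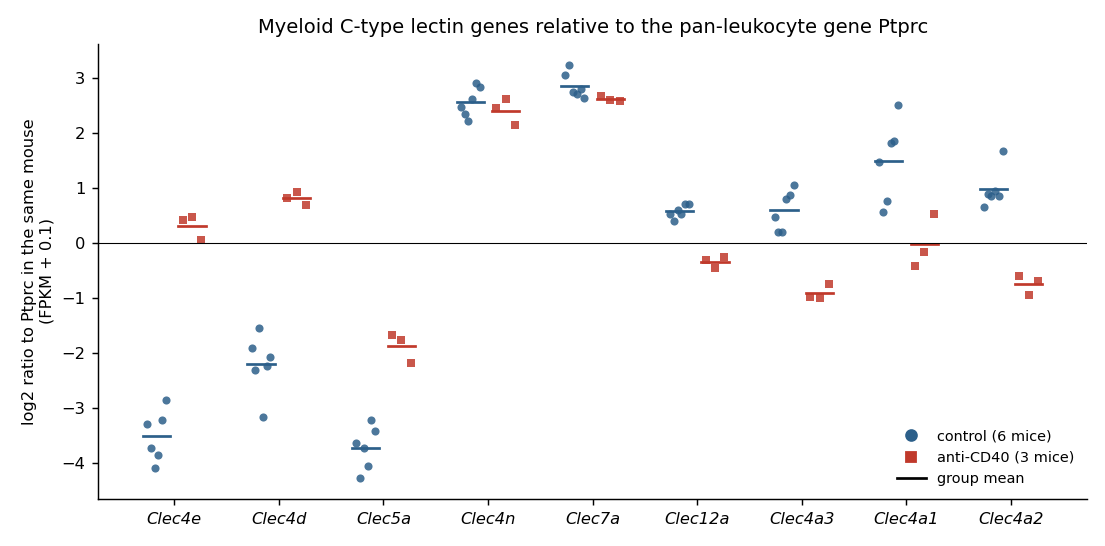
Log2 ratio of each lectin gene to Ptprc in the same mouse, from FPKM + 0.1, with control mice as circles, anti-CD40 mice as squares, and bars at the group means. Clec4e, Clec4d, and Clec5a lie higher after anti-CD40, Clec4n and Clec7a overlap, and the other 4 lie lower, and with a pseudocount of 1 Clec5a and Clec4a1 overlap too, and the signs of Clec5a, Clec4n, and Clec7a turn.

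Markers of the cells that carry these receptors moved in different directions. The counts stand beside the shares over all genes tested, 23.5% called higher and 21.7% called lower. Of the neutrophil markers, 9 of 9 tested were higher after anti-CD40, with a median log2 fold change of 4.73 and a summed FPKM of 4220 to 5207 against 18.4 to 156 in controls. Ly6g, the other neutrophil marker listed, had no values under its name and could not be tested. All 7 monocyte markers were higher, with a median of 4.27 and a sum of 591 to 797 against 46.9 to 127. The FPKM of different genes are not on one scale, so such sums mostly follow their largest genes. In the anti-CD40 mice S100a8 and S100a9 lay at 2916 to 3677 and 1239 to 1619, and Plac8, of the monocyte list, at 470 to 641. All 8 Kupffer cell markers were lower, with a median of -3.55 and a sum of 41.2 to 51.2 against 293 to 471. The 8 general macrophage markers were mixed, 2 higher and 3 lower, with a median of -0.26 and a sum of 265 to 368 against 215 to 329. Of the 6 dendritic cell markers tested, 5 were higher, with a median of 0.93 and a sum of 14.8 to 17.4 against 2.38 to 3.82, a count that fell to 2 under other settings. Most of the treated sum was Itgax, at 6.10 to 6.49, and Ccr7, at 5.86 to 6.87. Cd209a, too low to be tested, went the other way, from 0.0414 to 0.264 in controls to the floor in every anti-CD40 mouse. The 4 pan-leukocyte markers and the 4 B cell markers were all higher, with medians of 2.79 and 2.89. The 5 T and NK cell markers were higher too, with a median of 1.1, a count that likewise fell to 2. Some markers had control means below the 0.1 asked of a tested gene: Cxcr2, Mmp8, Ngp, Ltf, Chil3, Vcan, Flt3, and Cd79a. They were tested because of their level in the anti-CD40 mice, so the filter set their direction and they add little to these counts. For Cd163, of the Kupffer cell list, the anti-CD40 mean was below 0.1, at 0.0634. Cd163 was tested because of its control level, so there too the filter set the direction. Marker genes are named here only to give such limits. As in any liver, hepatocyte markers were abundant, though lower after anti-CD40 in 5 of 8, with 1 higher and a sum of 3953 to 4843 against 12127 to 22299, and of 5 endothelial markers 2 were higher and 1 lower. The 1 hepatocyte marker called higher was not called without anti-CD40 mouse 5, and the endothelial counts changed with single mice. How much of the change of each lectin gene came with each of these cell types was not tested.

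The genes through which the receptors signal rose with them, by smaller amounts than the most changed receptors. Of 14 activating genes tested, 14 were called higher, with a median of 1.74, where 23.5% of all genes tested were called higher. Ptprc, which all leukocytes express, rose by 2.60, more than this median. The adaptors were abundant: Tyrobp rose from 34.6 ± 7.76 (SD, n = 6) to 106 ± 14.3 (SD, n = 3), which is a log2 fold change of 1.64 (SE 0.20, adjusted p = 9.05e-05). Fcer1g rose by 1.83 (SE 0.25, adjusted p = 1.80e-04) and Hcst by 1.05 (SE 0.22, adjusted p = 0.00294). Syk, the kinase on which the activating receptors converge, rose by 2.40 (SE 0.18, adjusted p = 3.89e-06), from 0.791 ± 0.137 (SD, n = 6) to 4.55 ± 0.486 (SD, n = 3). The Src-family kinases Fgr and Lyn rose by 2.96 and 0.59, and Prkcd and Plcg2, which act below Syk, by 2.16 and 2.38. Malt1 and Bcl10 rose by 1.46 and 0.85 (adjusted p = 0.00121 and 0.0140), the latter a call lost without anti-CD40 mouse 2 or 5. Src, with the weakest call (0.89, adjusted p = 0.0439), lost it in 11 alternatives. Card9, the scaffold that joins Syk to Bcl10, was too low to be tested, at the floor in 8 mice and at 0.0321 in anti-CD40 mouse 2.

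Genes that restrain the receptors were higher as well. Of 5, 4 were called higher, with a median of 1.41, where 23.5% of all genes tested were called higher. This median too was below the rise of Ptprc, 2.60. Ptpn6, the phosphatase recruited by the inhibitory receptors, rose by 1.56 (SE 0.14, adjusted p = 1.45e-05), Inpp5d by 1.79, and the ubiquitin ligases Cbl and Cblb by 1.41 and 1.13. Ptpn11, the related phosphatase that most cells express, had an FPKM of 8.81 ± 0.421 (SD, n = 3) after anti-CD40 and 8.15 ± 1.24 (SD, n = 6) in controls, a log2 fold change of 0.12 (SE 0.14, adjusted p = 0.492), which became a call of 0.49 (adjusted p = 0.0221) with the Saa genes left out.

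Cytokine and chemokine genes known as outputs of Card9 signalling, which other receptors also induce, were called higher in 9 of 10 tested, with a median of 2.89. Of all genes tested, 23.5% were called higher. The neutrophil chemokine Cxcl2 rose by 5.15 (SE 0.68, adjusted p = 1.68e-04), Ccl3 by 3.94, Tnf by 3.90 (SE 0.32, adjusted p = 7.21e-06), Il12b by 3.82, and Cxcl1 by 3.50. The rises of Il23a, Nlrp3, and Il6 were 2.27, 1.57, and 1.19, each from an FPKM under 0.3 in every control mouse, and the call of Il6 was lost with quantile normalization (adjusted p = 0.0543). The control means of Il23a and Il6, 0.0213 and 0.0790, were below the 0.1 asked of a tested gene. Both were tested because of their level in the anti-CD40 mice, so the filter set their direction. Il1b, with controls from 1.60 to 14.6, had a log2 fold change of 1.89 (SE 0.66, adjusted p = 0.0387), a call lost in 9 alternatives. Il10 had a log2 fold change of -0.29 (SE 0.36, adjusted p = 0.528), from an FPKM of at most 0.192. Ptgs2 and Nos2 were too low to be tested.

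**Figure D5:**
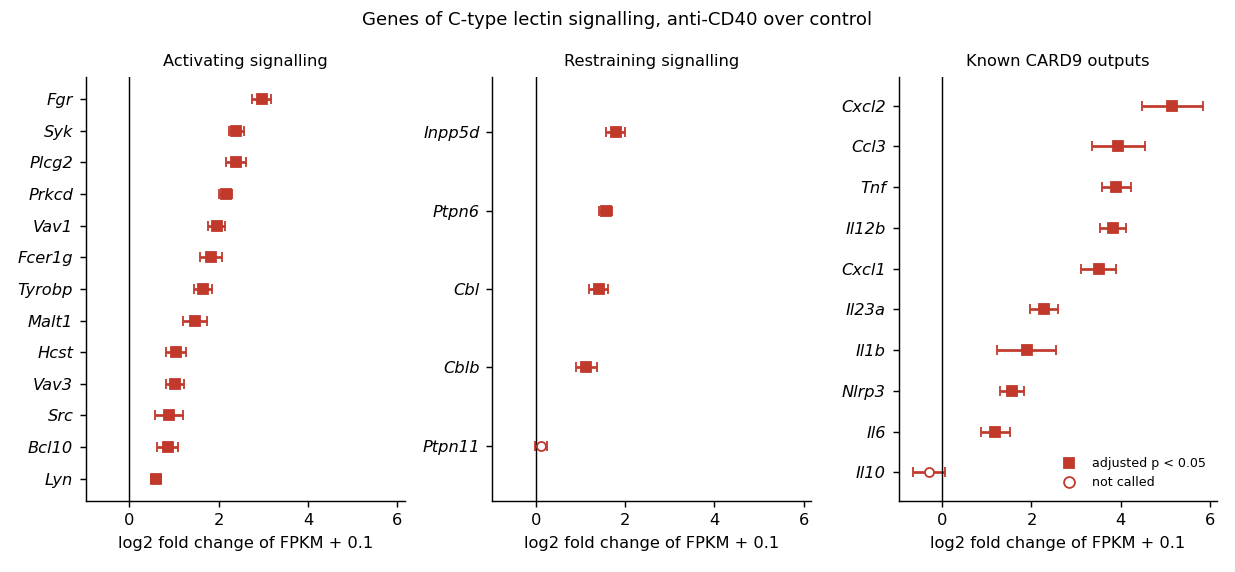
Log2 fold change of FPKM + 0.1 with its standard error for 13 of the genes that carry the signal of the receptors, genes that restrain it, and known outputs of Card9 signalling. Filled squares had an adjusted p under 0.05, and open circles, Ptpn11 and Il10, did not.

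Other C-type lectins moved in both directions. Of 36 in the table, 30 were tested, of which 10 were called higher and 13 lower, with a median log2 fold change of -0.65. Over all genes tested, 23.5% were called higher and 21.7% lower. With a mean FPKM of at least 1 asked of a tested gene, the 10 called higher fell to 2. Beside Olr1, the rises named are those of Cd69 at 2.71, Clec4a4 at 1.43, and Ly75 (DEC-205) at 1.41. The control means of Olr1, Clec4a4, and Ly75 (0.0248, 0.0559, and 0.0448) were below the 0.1 asked of a tested gene. All of them were tested because of their level in the anti-CD40 mice, so the filter set their direction. The largest falls were those of Clec4f, the Kupffer cell lectin, at -6.77, Cd207 (langerin) at -3.39, Cd209f at -3.29, Clec4b1 at -2.07, and Clec2h at -2.06. Clec4f had an FPKM of 15.3 to 24.8 in the control mice and of 0.01 to 0.218 in the anti-CD40 mice. Among the genes called lower, Cd207 and Cd209d, the latter named only for this limit, had anti-CD40 means of 0.0630 and 0.01. Both were tested because of their level in the control mice, so the filter set their direction too. The call of Clec2h was lost without anti-CD40 mouse 5 (-1.53, adjusted p = 0.0594).

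The genes outside the 9 whose pattern over the 9 mice was nearest to the mean of the 9 were H2-Eb1, Cd44, Fgr, Ly9, and Ms4a6c. Likeness was the root mean square difference between the log2 values of each mouse, taken from the control mean, and it lay between 0.129 for H2-Eb1 and 0.156 for Ms4a6c. H2-Eb1, a chain of MHC class II, rose by 2.85 in log2 from 18.6 ± 5.04 (SD, n = 6) to 131 ± 8.27 (SD, n = 3), and Cd44, the hyaluronan receptor, by 2.86 from 3.73 ± 0.977 (SD, n = 6) to 27.3 ± 3.83 (SD, n = 3). Most of this likeness is the difference between the 2 groups, which the 9 mice share. The 5 genes rose by 2.77 to 2.96 in log2, a size of change that none of the 9 lectin genes had. Clec4n was the nearest below, at 2.43, and Clec5a the nearest above, at 4.44.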

How the data were processed

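Liver RNA from 9 mice was sequenced with a QuantSeq 3′ FWD kit on a NextSeq 500. Per the labels, reads were mapped to mm10 by STAR, and the authors deposited FPKM values from Cufflinks and CuffDiff, with a floor of 0.01. The annotation used is not given in the sources used here. The 15 genes with a failed estimate were left out, and the 13807 whose mean FPKM reached 0.1 were tested as log2(FPKM + 0.1) with limma 3.58.1 in R 4.3.3 (eBayes with an intensity trend, 2-sided tests of treatment alone, Benjamini-Hochberg adjustment, called at 0.05). For single values an exact permutation test enumerated 84 splits. On simulated data, 83 of 100 genes with a log2 change of 2 and 49 of 100 with a change of 1 were recovered, with 9 false calls among 13807 genes. No other genes were changed in that simulation, whereas 45.1% of the genes were called in the data. Recovery and false calls depend on that share, so these figures do not give the rates in these data. Python 3.11.15 with pandas 2.3.3 did the remaining steps. Promoters are from RefSeq and gene models from GENCODE M21.

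The 9 genes and the lists were chosen with earlier results of these data known. Named were the 9 genes, genes of the signalling and output lists, the 5 largest called increases and 5 largest called decreases among other C-type lectins, and the 5 genes nearest in pattern, and Ptprc and Csf1r served as references. A pair of these genes is not reported here by name. Exceptions are stated where they occur. Alternatives were other pseudocounts, filters, scalings, and variance models, and leaving out each mouse.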

Additional observations from a re-analysis of the deposited data

Results flagged for a closer look

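Of 29 quantities examined over the 6 control mice, 2 had an extreme mouse that passed Dixon's gap test, and about 1.45 would pass by chance. Both were in control mouse 4. For Clec7a, the distance to the second mouse took up 0.630 of the span of the controls, with an FPKM of 30.5 in mouse 4 and 16.0 in the next control. For the summed FPKM of the B cell markers it took up 0.632, with 6.53 in mouse 4 and 3.40 in the next control. Without mouse 4 the log2 fold change of Clec7a was 2.60, and it was still called.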

How the results depend on the processing

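No paired analysis was possible because no mouse number occurs in both groups. Over 19 alternatives, 8 or 9 of the 9 lectin genes were called, the lost call being Clec4a2, and each log2 fold change stayed positive. With Saa1, Saa2, and Saa3 left out, 5635 genes were called higher and 1647 lower. With a mean FPKM of at least 1, the outputs of Card9 signalling called higher fell from 9 to 5 and the other lectins from 10 to 2, as fewer genes were tested. The T and NK cell markers called fell from 5 to 2 with no filter, with quantile normalization, and without anti-CD40 mouse 9 or control mouse 3 or 11, and the dendritic cell markers from 5 to 2 with quantile normalization and without anti-CD40 mouse 2. Hepatocyte markers called higher went from 1 to 0 without anti-CD40 mouse 5. Endothelial markers called higher went from 2 to 1 without anti-CD40 mouse 5 or 9, and those called lower from 1 to 0 with no filter, without the Saa genes, and without anti-CD40 mouse 2 or control mouse 3 or 11, and to 2 without control mouse 4. With a pseudocount of 1 the differences from Ptprc turned to -0.20 for Clec5a, 0.23 for Clec4n, and 0.16 for Clec7a, that of Clec4d to Clec4e turned to 0.15, and that of Clec4n to Clec4d was -1.58. Leaving out single mice, the differences ranged from -0.93 to -0.56 for Clec4d to Clec4e, from -3.37 to -2.97 for Clec4n to Clec4d, from 0.60 to 0.79 for Clec7a to Clec12a, from -0.33 to -0.16 for Clec4a2 to Clec4a3, and from -0.20 to 0.15 for Clec4a1 to Clec4a3. With 2 anti-CD40 mice the exact permutation test cannot go below 0.0714. Il10 ranged from -0.69 to 0.0017 and Clec1b from -0.11 to 0.090 over single mice left out, turning sign without anti-CD40 mouse 2 for Il10. Clec1b turned to 0.11 with quantile normalization, 0.33 without the Saa genes, 0.090 without anti-CD40 mouse 5, 0.015 without control mouse 4, 0.014 without control mouse 8, and 0.14 without mice 4 and 5. Neither gene was called there, and the cause was not tested. The low control levels of Clec4e and Clec5a limit their ratios.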
